A study of Mus musculus with 24 samples.

Results

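Gastrocnemius, a muscle of the calf, was compared between old and young female C57BL/6J mice that had received the same control vector. The comparison took 8 of the 24 RNA-seq libraries of the series, 4 titled old GFP and 4 titled young GFP, each from 1 mouse. Per the study's methods, young mice were 3 to 6 months of age and old mice 21 to 24 months. Every mouse of both groups carried an adeno-associated virus encoding green fluorescent protein (AAV-GFP), given into the tail vein at 3e8 vector genomes per mouse, and muscle was taken 14 days later. The promoter of the vector is active in liver cells, so the transgene was not directed at muscle. A further group of 4 libraries, titled young sham, is used only where stated.

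Skeletal muscle is built of long fused cells, the myofibers, whose contractile proteins come in fast and slow versions. Between the fibers lie satellite cells, which are the muscle stem cells, and fibroblast-like, vascular, nerve-sheath and immune cells. Aging muscle is known for loss of fiber size, for slower contraction and for remodeling of the junctions between nerve and muscle. Fibers that lose their nerve are known to switch on genes of developing muscle again.

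Levels are given as CPM, the reads on a gene per 1000000 reads counted on genes in a library, scaled between libraries by the TMM method. The libraries held 42194363 to 53266529 reads on genes in young GFP mice and 36415886 to 57976771 in old GFP mice. Differences are log2 fold changes of old GFP over young GFP with their standard error (SE) from edgeR's quasi-likelihood test, and "adjusted p" is the Benjamini-Hochberg value over all 17465 genes tested. The words rose and fell are kept for genes with an adjusted p under 0.05. The values of a group are listed in the order of its mice 1 to 4, and young and old mice are those of the GFP groups. As a check of the tissue label, 10 genes of the myofiber together took 157083 to 185228 CPM in young GFP mice and 152428 to 175760 CPM in old GFP mice.

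Several libraries carried RNA of other tissues. The 20 genes of a liver list summed to 1130.4, 17.7, 11.3 and 162 CPM in old and 16.4, 65.5, 58.3 and 14.3 CPM in young mice, so that old GFP mice 1 and 4 stood apart. Of these sums Cyp2e1, a cytochrome also made outside the liver, took 49.5, 12.7, 9.72 and 38.7 CPM in old and 15.8, 63.8, 56.9 and 13.7 CPM in young mice. A list of 11 genes of keratinocytes, which form the epidermis, summed to 143, 2.36, 442 and 1.95 CPM in young mice and to at most 5.57 CPM in any old mouse, so that young GFP mice 1 and 3 stood apart. Markers of T and natural killer cells summed to 36.6 CPM in young GFP mouse 3 and to between 1.47 and 4.21 CPM in the other 7 libraries. Alb, the albumin gene, read 0.117, 1.08, 0.558 and 0.289 CPM in young and 659.9, 2.82, 0.899 and 58.7 CPM in old mice. The results below are followed by what remained without these libraries.

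Genes that rose in old muscle included the embryonic myosin Myh3 (3.20-fold), the stretch-induced gene Ankrd1 (4.53-fold) and sarcolipin, Sln (8.12-fold, ratios of mean CPM, n = 4 each). The immunoglobulin heavy chains Ighg2c and Ighm, the receptor gene Eda2r and the stress hormone gene Gdf15 rose as well. Elastin, Eln, fell to a level 1.93-fold below the young mean, and imprinted noncoding RNAs also fell. The coactivator gene Ppargc1a fell against young GFP, but its call was lost with young sham in place of young GFP (old GFP over young sham -0.09 on the log2 scale, adjusted p = 0.859). Adult contractile proteins, glycolysis, fatty acid oxidation and the mitochondrial genome held 0 genes past the test in edgeR.

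From young to old, 424 genes rose and 189 fell, which is 2.43% and 1.08% of the 17465 genes tested. At an unadjusted p under 0.05 the numbers were 1807 (10.3%) higher and 1313 (7.52%) lower. The counts of every gene list below are to be read beside these shares of all genes. Protein-coding genes made up 386 of the genes that rose and 165 of those that fell. The median change was 0.91 on the log2 scale among genes that rose and -0.65 among genes that fell, and 195 and 53 genes respectively moved by more than 1. The 4 old libraries lay above the 4 young libraries for 377 of the genes that rose, against 8.79% of all genes tested, and below them for 178 of the genes that fell, against 7.06%. These genes were called on the same libraries, so their separation follows in large part from that choice and is no separate evidence. The median log2 fold change over all genes tested was 0.00.

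The calls became fewer when libraries were left out, while most directions held. These fits reuse libraries on which the genes were called, so kept directions and small p values are no separate evidence. Without old GFP mice 1 and 4, 142 genes were higher and 59 lower at an adjusted p under 0.05. Of the 424 genes that had risen, 422 kept a higher level in that fit, 380 with an unadjusted p under 0.05, and 136 were called again. All 189 genes that had fallen kept a lower level with an unadjusted p under 0.05, and 50 were called again. Without young GFP mice 1 and 3, 50 genes were higher and 45 lower, and 47 and 41 of them were among the genes called with all libraries. Of 22 called genes on the functional and cell type lists other than liver, 7 were still called without old GFP mice 1 and 4 (Myh3, Sln, Ankrd1, Fosb, Eda2r, Eln and Ighg2c), and 3 without young GFP mice 1 and 3 (Eda2r, Eln and Ighg2c). In 37 of the 424 genes that rose, old GFP mice 1 and 4 both exceeded old GFP mice 2 and 3 by more than 5 times.

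**Figure D1:**
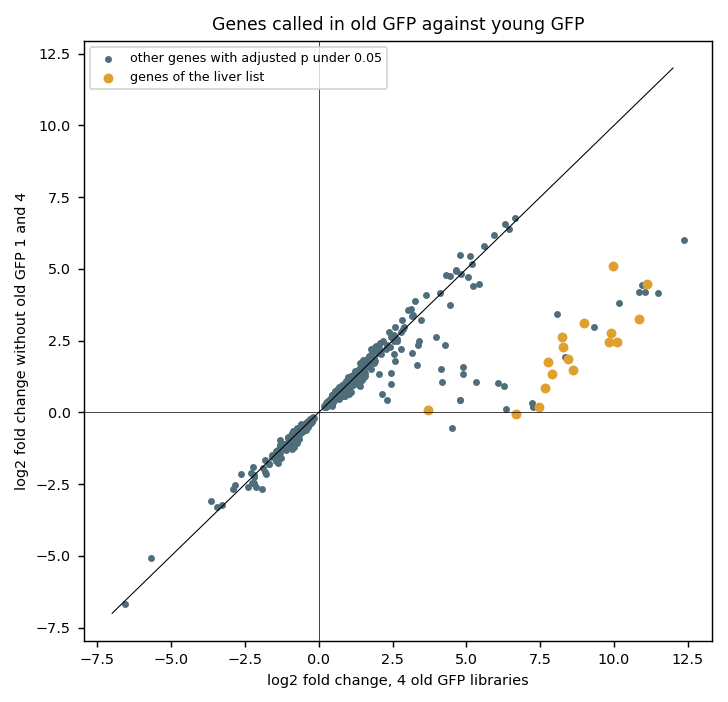
Log2 fold changes of genes called in old GFP against young GFP, with all 4 old GFP libraries (horizontal axis) and without old GFP mice 1 and 4 (vertical axis); each point is a gene, and the line marks equal values. The genes of the liver list, in orange, and some others lie far below the line, and most points lie along it.

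The 12 largest increases and 12 largest decreases are described for genes with a named symbol, an adjusted p under 0.05, at least 1 CPM in either group mean, groups that did not overlap, and the same direction at an unadjusted p under 0.05 without old GFP mice 1 and 4. Members of the liver and keratinocyte lists were left out. That the groups stand apart in these 24 genes is therefore given by their choice. The choice also used the fit without old GFP mice 1 and 4, so calls kept in that fit follow in part from it. Of all called genes, 136 of the 424 that rose and 50 of the 189 that fell were called again in that fit. Without old GFP mice 1 and 4, 10 of the 12 increases (not Aox3 and Ighm) and 9 of the 12 decreases (not Wif1, Abca4 and Clic3) were still called. Without young GFP mice 1 and 3, 3 of the 12 increases (Nkx2-2os, Ighg2c and Tmem132b) and 9 of the 12 decreases (not Wif1, Abca4 and Clic3) were still called.

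The largest increase was in Nkx2-2os, a noncoding RNA that lies opposite the Nkx2-2 gene at chr2:147184083-147331681 of GRCm38. It measured 0.0466, 0, 0.0186 and 0 CPM in young and 1.70, 1.64, 1.60 and 1.80 CPM in old mice (log2 fold change 6.46, SE 0.68, adjusted p = 4.86e-05). Since it had 3 reads over the young and 324 over the old libraries, the ratio of 101 carries a counting interval of 34.3 to 493 (exact binomial, 95%, counting error only), and the fitted value is uncertain to that extent. Reads were counted without regard to strand, but Nkx2-2 itself did not exceed 0.0281 CPM in any of the 8 libraries. Tmem132b, which encodes a transmembrane protein, read 0.420, 0.361, 0.205 and 0.169 CPM in young and 4.21, 9.65, 6.04 and 5.04 CPM in old mice (log2 fold change 4.44, SE 0.41, adjusted p = 1.15e-05). Both genes were low in young muscle, and the old libraries of Tmem132b spanned 2.29-fold.

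Rrad and Sln were both among the 12 largest increases. Rrad, which encodes a small GTP-binding protein that restrains voltage-gated calcium channels, stood at 0.606, 0.938, 1.66 and 0.722 CPM in young and 10.4, 21.3, 12.9 and 5.54 CPM in old mice (log2 fold change 3.64, SE 0.66, adjusted p = 0.00556). Sln encodes sarcolipin, a peptide that inhibits the calcium pump of the sarcoplasmic reticulum, and measured 0.956, 0.890, 1.32 and 0.843 CPM in young and 5.77, 15.9, 8.18 and 2.69 CPM in old mice (log2 fold change 3.01, SE 0.61, adjusted p = 0.0108). In both genes old GFP mouse 2 was highest and old GFP mouse 4 lowest of the old libraries. Krt18, a keratin of simple epithelia, was 0.0699, 0.337, 0.205 and 0.217 CPM in young and 2.62, 12.7, 5.87 and 1.69 CPM in old mice (log2 fold change 4.78, SE 0.90, adjusted p = 0.00654). Its partner Krt8, chosen after its values were seen, rose from 0.0273 ± 0.0207 to 0.758 ± 0.354 CPM (mean ± SD, n = 4 each, adjusted p = 0.0186), and the call was lost without young GFP mouse 1, 3 or 4. In young sham the levels were 8.21 ± 11.2 CPM for Krt18 and 6.35 ± 9.21 CPM for Krt8 (mean ± SD, n = 4), and the direction turned against that group (old GFP over young sham -0.52 and -3.06 on the log2 scale, adjusted p = 0.809 and 0.126).

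The antibody genes Ighg2c and Ighm rose. Ighg2c, the heavy chain of an immunoglobulin G class, measured 0.280, 0.265, 0.316 and 0.120 CPM in young and 3.87, 6.65, 8.91 and 5.70 CPM in old mice (log2 fold change 4.64, SE 0.61, adjusted p = 6.64e-04). Ighm, the heavy chain of immunoglobulin M, was 37.05, 31.00, 65.5 and 23.2 CPM in young and 155, 326, 144 and 356 CPM in old mice (log2 fold change 2.64, SE 0.60, adjusted p = 0.0211). All old libraries were several times above the young ones in Ighg2c, while the Ighm call was lost without old GFP mouse 2 or young GFP mouse 1, 2 or 4, with an adjusted p of up to 0.0756. Young GFP mouse 3 had the highest young value of both genes.

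The remaining 5 of the 12 largest increases, Fetub, Cpn1, Kng2, Aox3 and Ces2c, are genes known for high expression in liver that were not on the liver list. Fetub, a plasma protein gene of the fetuin family, read 0.163, 0.0962, 0.0558 and 0.0963 CPM in young and 5.84, 0.700, 0.365 and 1.05 CPM in old mice (log2 fold change 4.27, SE 0.77, adjusted p = 0.00543), with a log2 fold change of 2.36 without old GFP mice 1 and 4. Cpn1, a plasma carboxypeptidase, was 0.0466, 0.192, 0.0744 and 0.169 CPM in young and 2.16, 0.645, 0.590 and 1.51 CPM in old mice (log2 fold change 3.35, SE 0.51, adjusted p = 0.00194). For Fetub, Cpn1, Kng2 and Aox3 the highest value was in old GFP mouse 1 and the next in old GFP mouse 4, the old libraries with the most liver RNA. Kng2, a kininogen, measured 0.0466, 0.144, 0.167 and 0.0963 CPM in young and 2.35, 0.313, 0.702 and 0.753 CPM in old mice (log2 fold change 3.14, SE 0.54, adjusted p = 0.00421). Aox3, an aldehyde oxidase, was 0.140, 0.289, 0.0744 and 0.0963 CPM in young and 1.39, 0.8289, 0.562 and 1.30 CPM in old mice (log2 fold change 2.78, SE 0.47, adjusted p = 0.00405), and without old GFP mice 1 and 4 its adjusted p was 0.0587. Ces2c, a carboxylesterase, differed from these in being highest in old GFP mice 2 and 3, at 0.0699, 0.168, 0.205 and 0.0722 CPM in young and 0.771, 1.60, 2.42 and 0.411 CPM in old mice (log2 fold change 3.27, SE 0.79, adjusted p = 0.0285), and its call was lost without old GFP mouse 2 or 3 or any single young mouse. With the liver level as a covariate, Cpn1 and Ces2c were still called (log2 fold change 2.31 and 3.82, adjusted p = 0.0250 and 0.0357). Fetub, Kng2 and Aox3 were not (1.96, 2.08 and 2.18, adjusted p = 0.0623, 0.0588 and 0.0505). The part of liver RNA in these increases was not tested beyond these values.

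**Figure D2:**
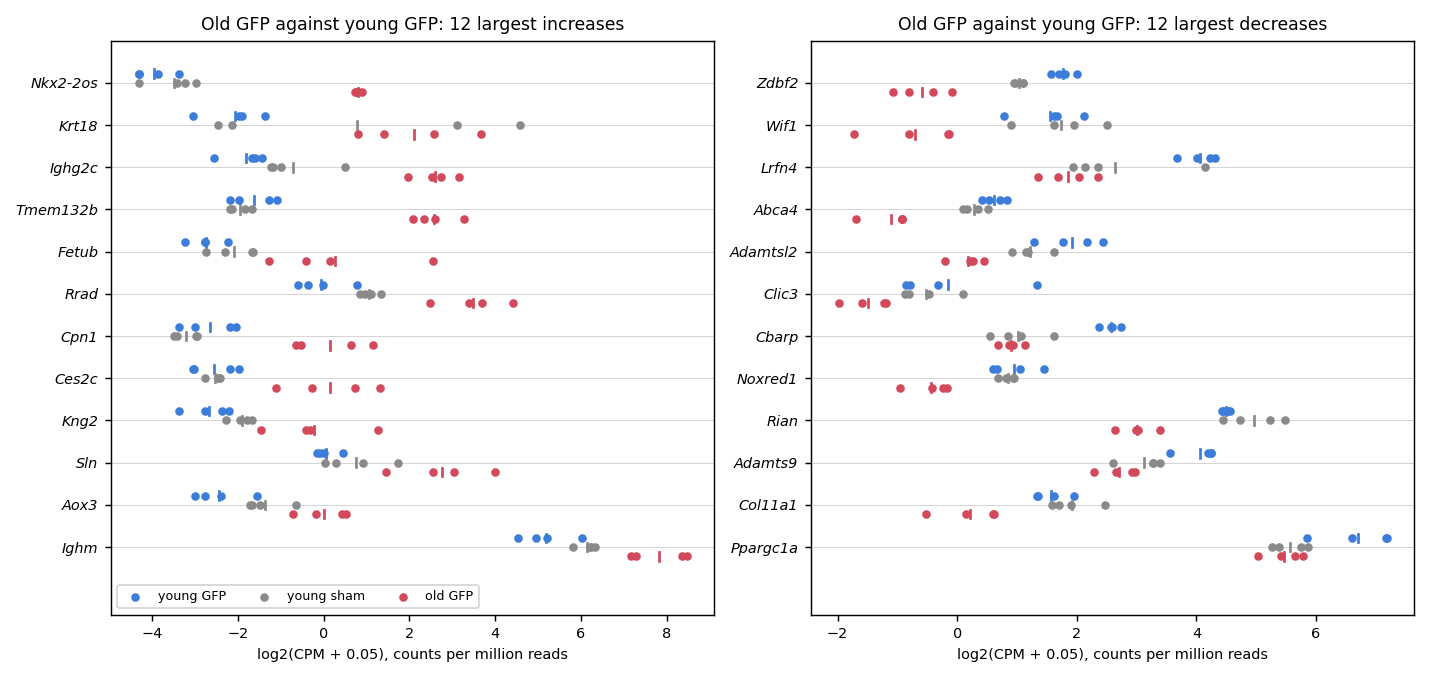
Levels of the 12 genes with the largest increases (left) and the 12 with the largest decreases (right) as log2(CPM + 0.05), 1 point per library and a short bar for the group mean, for young GFP, young sham and old GFP. The genes were chosen so that old GFP and young GFP points do not overlap in any row, and young sham lies with young GFP in some rows, such as Tmem132b, and with old GFP in others, such as Cbarp.

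The largest decrease was in Zdbf2, an imprinted zinc finger gene at chr1:63273265-63314576, which measured 3.19, 3.94, 2.90 and 3.44 CPM in young and 0.891, 0.424, 0.702 and 0.525 CPM in old mice (log2 fold change -2.40, SE 0.37, adjusted p = 0.00194). Rian, a noncoding RNA of the imprinted Dlk1-Dio3 region at chr12:109603940-109661716, was 21.6, 23.4, 22.99 and 21.5 CPM in young and 8.05, 7.85, 6.21 and 10.5 CPM in old mice (log2 fold change -1.46, SE 0.24, adjusted p = 0.00357). The young libraries of Rian spanned only 21.5 to 23.4 CPM and no old library exceeded 10.5 CPM. Meg3 at chr12:109541001-109571726 and Mirg at chr12:109729764-109749460, noncoding RNAs of the same region chosen after their values were seen, fell by 1.002 and 0.91 on the log2 scale (adjusted p = 0.00543 and 0.0261). The Mirg call was lost in 5 of 8 fits with a library removed, those without old GFP mouse 1, 2 or 3 or young GFP mouse 2 or 3, with adjusted p of up to 0.0843.

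Wif1, Adamtsl2, Adamts9 and Col11a1 were also among the 12 largest decreases. Wif1, a secreted inhibitor of Wnt ligands, was 3.15, 4.30, 1.67 and 3.03 CPM in young and 0.856, 0.847, 0.253 and 0.525 CPM in old mice (log2 fold change -2.27, SE 0.54, adjusted p = 0.0260). Adamtsl2, a secreted protein that binds microfibrils, measured 5.39, 4.45, 2.38 and 3.37 CPM in young and 1.11, 1.31, 1.15 and 0.821 CPM in old mice (log2 fold change -1.82, SE 0.27, adjusted p = 0.00181). Adamts9, a secreted protease that cleaves proteoglycans, stood at 18.3, 18.9, 11.8 and 18.9 CPM in young and 4.83, 6.24, 7.81 and 7.53 CPM in old mice (log2 fold change -1.37, SE 0.22, adjusted p = 0.00272). With young sham in place of young GFP its call was lost (-0.43 on the log2 scale, adjusted p = 0.276). Wif1 and Adamtsl2 varied more among young than among old mice in CPM, and the Wif1 call was lost without old GFP mouse 1, 3 or 4 or young GFP mouse 1, 2 or 4. Col11a1, a fibrillar collagen chain typical of cartilage, was 3.01, 3.80, 2.51 and 2.48 CPM in young and 1.06, 1.47, 0.646 and 1.46 CPM in old mice (log2 fold change -1.34, SE 0.25, adjusted p = 0.00598).

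Lrfn4, Cbarp, Abca4, Clic3, Noxred1 and Ppargc1a made up the rest of the 12. Lrfn4, a synaptic adhesion protein, was 19.7, 12.7, 18.6 and 16.1 CPM in young and 3.17, 2.49, 5.06 and 4.06 CPM in old mice (log2 fold change -2.19, SE 0.27, adjusted p = 4.33e-04). Cbarp, which encodes a regulator of voltage-gated calcium channels, measured 5.88, 5.96, 5.13 and 6.64 CPM in young and 2.14, 1.55, 1.85 and 1.78 CPM in old mice (log2 fold change -1.69, SE 0.29, adjusted p = 0.00405). Abca4, a lipid transporter best known from the retina, read 1.59, 1.39, 1.28 and 1.73 CPM in young and 0.480, 0.258, 0.478 and 0.479 CPM in old mice (log2 fold change -1.82, SE 0.39, adjusted p = 0.0153), and its adjusted p was 0.0551 without old GFP mouse 2. The old means of Lrfn4, Cbarp and Abca4 lay 4.55-fold, 3.23-fold and 3.54-fold below the young means.
Clic3, a chloride channel family member, was 0.746, 0.505, 2.47 and 0.530 CPM in young and 0.377, 0.203, 0.281 and 0.388 CPM in old mice (log2 fold change -1.77, SE 0.41, adjusted p = 0.0224), and its call was lost without young GFP mouse 3, its highest library, or old GFP mouse 2 or 3. Noxred1, an oxidoreductase-like gene, stood at 1.54, 1.47, 2.03 and 2.67 CPM in young and 0.463, 0.700, 0.843 and 0.798 CPM in old mice (log2 fold change -1.46, SE 0.24, adjusted p = 0.00341). Ppargc1a encodes PGC-1α, a coactivator that drives mitochondrial gene expression, and measured 57.6, 97.2, 146 and 144 CPM in young and 32.7, 54.7, 42.8 and 50.2 CPM in old mice (log2 fold change -1.30, SE 0.21, adjusted p = 0.00340). Its young libraries varied 2.53-fold among themselves, and the lowest of them lay just above the highest old library. With young sham in place of young GFP the call was lost (adjusted p = 0.859).

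Slow and fast contractile protein genes had estimates of opposite sign, but 0 of the adult forms passed the test. All 12 genes of slow contractile proteins had a higher estimate in old muscle, with a median log2 fold change of 0.83, 8 of them with an unadjusted p under 0.05 (10.3% of all genes tested) and 0 with an adjusted p under 0.05 in edgeR. All 12 genes of fast contractile proteins had a lower estimate, with a median of -0.16, 1 with an unadjusted p under 0.05 (7.52% of all genes tested) and 0 after adjustment. Myh7, the slow myosin heavy chain, measured 279.7, 279, 192 and 240.5 CPM in young and 520.0, 451, 742 and 493 CPM in old mice (log2 fold change 1.15, SE 0.37, adjusted p = 0.0946). Tnni1, the slow troponin I, was 57.1, 65.6, 44.5 and 50.02 CPM in young and 108, 113, 155 and 99.9 CPM in old mice (log2 fold change 1.13, SE 0.35, adjusted p = 0.0827). In both of these genes, and in 8 of the 12 slow genes, the 4 old libraries lay above the 4 young ones (8.79% of all genes tested).

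Fast fiber genes moved less. Mylpf, the fast regulatory light chain, read 7828, 7929, 7554 and 7569.6 CPM in young and 6209, 6260.4, 6564 and 6929 CPM in old mice (log2 fold change -0.25, SE 0.11, adjusted p = 0.214). Casq1, the calcium-binding protein of fast sarcoplasmic reticulum, was 2621, 2454, 2416 and 2441 CPM in young and 1816, 1825, 1822 and 2103 CPM in old mice (log2 fold change -0.39, SE 0.20, adjusted p = 0.322). Myh4, the myosin of the fastest (type IIB) fibers, had a log2 fold change of -0.07 (adjusted p = 0.802), Myh1 of -0.09 (adjusted p = 0.819) and Myh2 of 0.06 (adjusted p = 0.906). Of the reads on Myh1, Myh2, Myh4 and Myh7, Myh4 took 91.2% ± 1.01 in young and 90.4% ± 1.35 in old GFP mice (SD, n = 4 each). The difference of -0.727 percentage points was within the spread of the mice (2-sided exact permutation test, p = 0.400, where 4 against 4 allows no p below 0.0286). Myh7 took 0.380% ± 0.0818 of these reads in young and 0.876% ± 0.218 in old GFP mice.

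Genes of developing muscle and of cell fusion rose in part. Of 10 such genes, 4 rose and 0 fell, beside 2.43% and 1.08% of all genes. Myh3, the embryonic myosin heavy chain, measured 4.45, 3.13, 3.22 and 4.86 CPM in young and 13.4, 12.01, 15.4 and 9.26 CPM in old mice (log2 fold change 1.68, SE 0.33, adjusted p = 0.00921). Myod1, a transcription factor that commits cells to muscle, was 16.4, 9.14, 11.03 and 8.98 CPM in young and 33.6, 41.6, 19.02 and 22.3 CPM in old mice (log2 fold change 1.36, SE 0.37, adjusted p = 0.0491). The old libraries of both genes lay above the young ones, but the Myod1 call held without old GFP mouse 3 and was lost without any other single library. Young sham had 31.3 ± 4.45 CPM of Myod1 against 29.1 ± 10.4 CPM in old GFP (mean ± SD, n = 4 each), and the direction turned against that group (old GFP over young sham -0.09 on the log2 scale, adjusted p = 0.912).
Mymk and Mymx encode myomaker and myomixer, the membrane proteins that fuse myoblasts, and both were near the detection limit. Mymk read 0.117, 0.0962, 0.0930 and 0.120 CPM in young and 0.120, 0.737, 0.478 and 1.21 CPM in old mice (log2 fold change 2.55, SE 0.68, adjusted p = 0.0455), from 4 to 5 reads per young and 7 to 53 reads per old library. Mymx was 0, 0.0481, 0 and 0.0722 CPM in young and 0.137, 0.571, 0.169 and 0.160 CPM in old mice (log2 fold change 3.11, SE 0.79, adjusted p = 0.0359). The Mymk call held without old GFP mouse 1, whose level was that of the young mice, and was lost without any other single library. The Mymx call was lost without old GFP mouse 2 or young GFP mouse 1, 2 or 3. Against this direction, Actc1, the cardiac alpha-actin that is also made in developing muscle, measured 1032, 628, 1134 and 739.9 CPM in young and 217, 158, 127 and 388 CPM in old mice (log2 fold change -1.99, SE 0.59, adjusted p = 0.0707). Actc1 was chosen after its values were seen, and it did not pass the test in edgeR. By the DESeq2 Wald test its adjusted p was 0.00893.

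The 250 bases before the start site of Myh3 are shown because its call held without any single library. The sequence is a RefSeq promoter entry of GRCm38.p6, from the plus strand at chr11:67078050-67078299, 5′ to 3′, and 0 of the 3 GENCODE transcripts of Myh3 start inside it. Capitals mark E-boxes (CANNTG, the sites of MyoD-type factors) and M-CAT motifs (CATTCC, the sites of TEAD factors), each searched on both strands.
Myh3: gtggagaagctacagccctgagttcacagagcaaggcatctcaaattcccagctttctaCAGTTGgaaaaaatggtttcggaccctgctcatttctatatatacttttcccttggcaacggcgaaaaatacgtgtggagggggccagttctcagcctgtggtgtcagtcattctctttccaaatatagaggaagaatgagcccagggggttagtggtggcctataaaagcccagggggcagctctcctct
This window held 1 E-box and 0 M-CAT motifs. An E-box was present in 66.2% and an M-CAT motif in 12.6% of the 32851 promoter windows of this length.

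Ankrd1 encodes a protein of the sarcomere and nucleus that is induced by stretch. It was the only gene that rose among 11 genes of stretch sensing and Z-disc repair, in which 0 fell, and the list had a median log2 fold change of 0.25. Ankrd1 measured 4.45, 4.76, 6.68 and 6.91 CPM in young and 18.8, 37.4, 27.3 and 19.7 CPM in old mice (log2 fold change 2.18, SE 0.40, adjusted p = 0.00598), and the lowest old library was 2.73 times the highest young library. Its call held without any single library, but neither it nor that of Myh3 held without young GFP mice 1 and 3 (adjusted p = 0.0987 and 0.117). Among 18 genes of calcium release and uptake, Sln and Cacng1 rose and 0 fell (2.43% and 1.08% of all genes), with a median of -0.10. Cacng1, a subunit of the calcium channel of the T-tubule, was 209, 236, 201 and 233 CPM in young and 281, 297, 318 and 276 CPM in old mice (log2 fold change 0.42, SE 0.11, adjusted p = 0.0424), and its call was lost whichever single library was left out.

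Genes of the nerve-muscle junction and of denervation leaned upward. Of 18 tested, 17 had a higher estimate, 4 with an unadjusted p under 0.05 (10.3% of all genes), and only Lrp4 rose, with 0 falling. The median log2 fold change was 0.38. Lrp4, the muscle receptor for agrin from the nerve, measured 12.3, 11.6, 10.5 and 8.64 CPM in young and 14.8, 16.9, 14.2 and 16.99 CPM in old mice (log2 fold change 0.55, SE 0.14, adjusted p = 0.0362), and its call was lost without old GFP mouse 1, 2 or 4 or young GFP mouse 2, 3 or 4. Chrng, the fetal subunit of the muscle acetylcholine receptor, and Runx1, a transcription factor of denervated muscle, did not pass in edgeR and were chosen after their values were seen. Chrng read 0, 0.216, 0.0372 and 0.144 CPM in young and 0.223, 1.12, 0.337 and 0.821 CPM in old mice (log2 fold change 2.67, SE 0.94, adjusted p = 0.126), and Runx1 2.84, 3.49, 3.53 and 2.94 CPM in young and 3.99, 10.7, 6.86 and 4.38 CPM in old mice (log2 fold change 1.02, SE 0.41, adjusted p = 0.192). Mss51, a gene of fast fibers whose product acts in mitochondrial metabolism, was among larger increases outside the lists and was chosen after its values were seen. It stood at 43.6, 42.7, 38.2 and 68.1 CPM in young and 164, 208, 285 and 131 CPM in old mice (log2 fold change 2.03, SE 0.35, adjusted p = 0.00421).

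Of 15 genes of growth factor and myostatin signaling, Gdf15 rose and Smad3 fell (2.43% and 1.08% of all genes), with a median of 0.30. Gdf15, a stress-induced hormone of the TGF-β family, was 0.0933, 0.0962, 0.112 and 0.0481 CPM in young and 1.11, 0.350, 0.281 and 0.365 CPM in old mice (log2 fold change 2.57, SE 0.54, adjusted p = 0.0139). Its call was lost without old GFP mouse 1, the highest library, or young GFP mouse 4, with adjusted p of up to 0.0617. Smad3, which transmits myostatin and TGF-β signals to the nucleus, read 179, 181, 180.1 and 201 CPM in young and 102, 122, 135 and 142 CPM in old mice (log2 fold change -0.56, SE 0.14, adjusted p = 0.0325). All old libraries of Smad3 were below all young ones, and its call was lost without old GFP mouse 1 or 2 or any single young mouse. Against young sham its direction turned (0.06 on the log2 scale, adjusted p = 0.845).

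Targets of p53 and genes of senescence moved in both directions. Of 15 tested, Eda2r and Gdf15 rose and Trp53inp1 fell (2.43% and 1.08% of all genes), and the median was 0.30. Eda2r, a receptor for ectodysplasin A2 at chrX:97333840-97377216, measured 16.6, 12.96, 13.8 and 15.96 CPM in young and 37.5, 53.3, 54.6 and 38.05 CPM in old mice (log2 fold change 1.63, SE 0.23, adjusted p = 0.00114). Its call held without any single library, without old GFP mice 1 and 4 (adjusted p = 0.00285) and without young GFP mice 1 and 3 (adjusted p = 0.0276). Trp53inp1, an autophagy and stress protein, was 28.98, 27.4, 21.3 and 23.9 CPM in young and 12.8, 12.5, 12.9 and 12.5 CPM in old mice (log2 fold change -1.002, SE 0.22, adjusted p = 0.0153).

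Of 15 immediate early genes, which respond to stimulation within minutes, Fos and Fosb rose and 0 fell (2.43% and 1.08% of all genes). The median was 0.30. Fos measured 15.7, 5.19, 8.67 and 5.83 CPM in young and 89.5, 51.96, 35.6 and 11.5 CPM in old mice (log2 fold change 2.42, SE 0.64, adjusted p = 0.0455) and Fosb 3.45, 0.794, 2.05 and 0.674 CPM in young and 13.2, 16.3, 17.1 and 3.26 CPM in old mice (log2 fold change 2.83, SE 0.65, adjusted p = 0.0224). In both genes the value of old GFP mouse 4 lay within the range of the young mice. The Fos call held without old GFP mouse 4 and was lost without any other single library, and the Fosb call was lost without old GFP mouse 1 or 2 or young GFP mouse 2, 3 or 4. With young sham in place of young GFP both calls were lost (log2 fold change 1.15 for Fos and 0.53 for Fosb, adjusted p = 0.318 and 0.738). Nr4a3, a nuclear receptor of the same list induced by exercise and chosen after its values were seen, had the opposite direction, at 161, 168, 158 and 228 CPM in young and 18.98, 53.8, 98.9 and 73.7 CPM in old mice (log2 fold change -1.55, SE 0.43, adjusted p = 0.0555). Of 18 circadian clock genes 1 fell and 0 rose (1.08% and 2.43% of all genes), with a median of 0.03. It was Nfil3, a repressor of clock output genes, at 56.9, 47.2, 43.6 and 40.2 CPM in young and 26.2, 29.2, 23.6 and 17.6 CPM in old mice (log2 fold change -0.96, SE 0.22, adjusted p = 0.0210), and the call was lost without old GFP mouse 4 or young GFP mouse 1.

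Genes of muscle wasting did not pass the test. Of 15 genes of atrophy and autophagy, 0 rose or fell in edgeR, 1 was lower and 0 higher at an unadjusted p under 0.05, and the median was 0.05. Foxo1, a transcription factor of fasting and atrophy, measured 94.2, 145, 110.4 and 147 CPM in young and 26.9, 40.4, 79.3 and 66.6 CPM in old mice (log2 fold change -1.22, SE 0.48, adjusted p = 0.173). Fbxo30, a ubiquitin ligase subunit, was 13.5, 13.6, 14.6 and 13.6 CPM in young and 16.5, 17.98, 14.02 and 15.1 CPM in old mice (log2 fold change 0.21, SE 0.11, adjusted p = 0.358). Of 12 metallothioneins and glucocorticoid targets, 6 were lower at an unadjusted p under 0.05 (7.52% of all genes) and 0 passed after adjustment, with a median of -0.65. Mt2, a metal-binding protein, read 1.10, 2.55, 0.893 and 1.97 CPM in young and 0.651, 0.184, 0.393 and 0.274 CPM in old mice (log2 fold change -2.10, SE 0.62, adjusted p = 0.0705), and Tsc22d3, which is induced by glucocorticoids, 254, 317, 265 and 311 CPM in young and 173, 169.6, 214 and 174 CPM in old mice (log2 fold change -0.65, SE 0.19, adjusted p = 0.0662). No old library of Mt2 or Tsc22d3 reached the lowest young value.

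**Figure D3:**
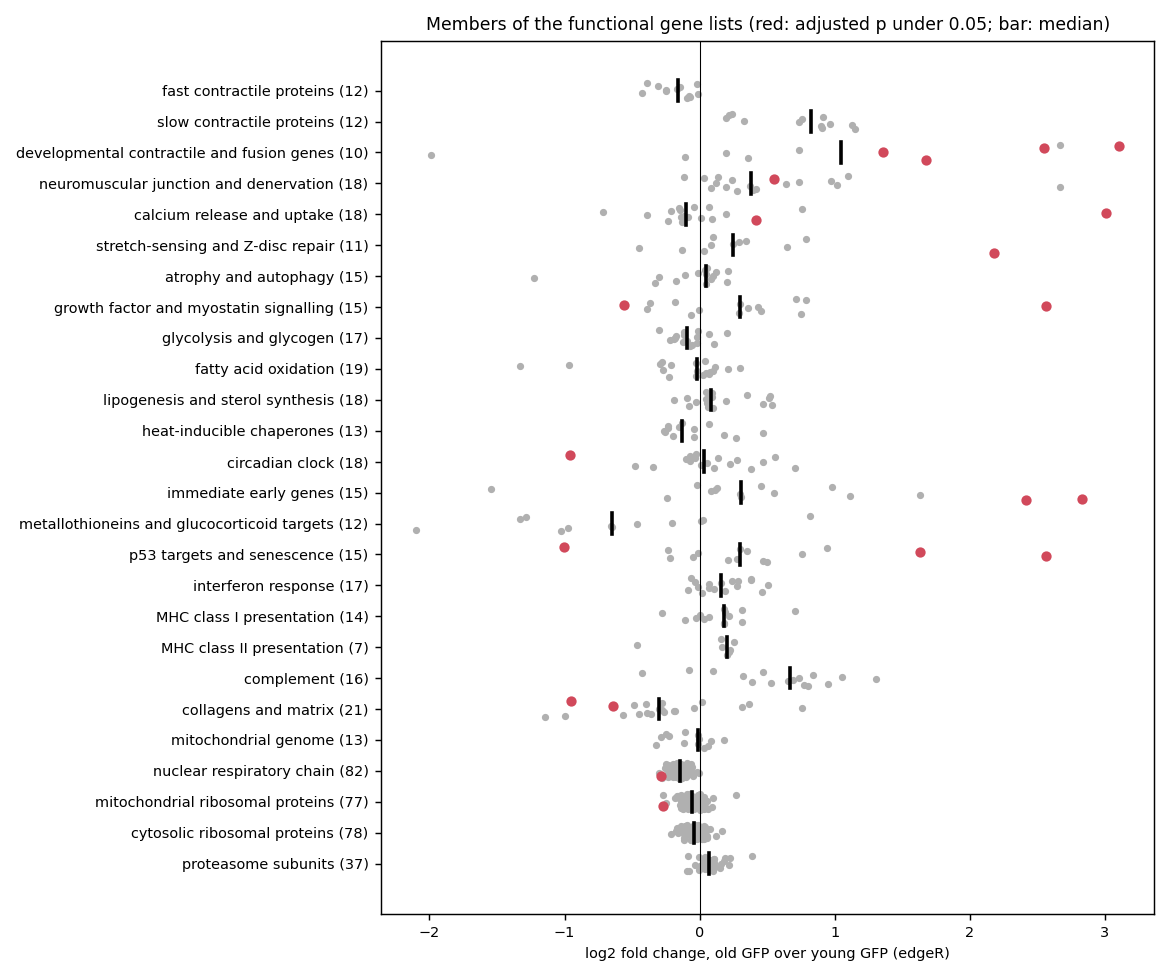
Log2 fold changes of old GFP over young GFP for the members of 26 functional gene lists, 1 point per gene tested, with the number tested in brackets, red points for an adjusted p under 0.05 and a black bar at the median. Slow contractile and complement genes lie mostly right of 0 with 0 red points, and the 82 nuclear respiratory chain genes lie in a narrow band left of 0.

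Few genes of energy metabolism passed the test. Of 82 nuclear genes of the respiratory chain, 82 had a lower estimate and 26 an unadjusted p under 0.05 (7.52% of all genes tested), but only Atp5o fell and 0 rose in edgeR, and the median was -0.14. Atp5o, a stalk subunit of ATP synthase, was 58.6, 58.4, 55.7 and 60.4 CPM in young and 48.4, 47.5, 48.9 and 46.5 CPM in old mice (log2 fold change -0.29, SE 0.08, adjusted p = 0.0470) and differed 1.22-fold between the means. Its call held without young GFP mouse 3 and was lost without any other single library. Of 77 mitochondrial ribosomal protein genes only Mrpl27 fell and 0 rose, with a median of -0.06. Mrpl27 measured 15.4, 14.9, 13.3 and 13.9 CPM in young and 12.1, 12.2, 12.2 and 11.2 CPM in old mice (log2 fold change -0.27, SE 0.06, adjusted p = 0.0213), and its call was lost without old GFP mouse 4 or young GFP mouse 1.

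The mitochondrial genome itself took 15.2% ± 0.980 of counted reads in young and 15.7% ± 0.876 in old GFP mice on its 13 protein genes (SD, n = 4 each). The difference of 0.530 percentage points was within the spread of the mice (2-sided exact permutation test, p = 0.457). Of these 13 genes 0 passed in edgeR, adjusted or unadjusted, and the smallest p values belonged to mt-Nd3 (log2 fold change -0.32, SE 0.15, adjusted p = 0.284) and mt-Co2 (log2 fold change -0.29, SE 0.14, adjusted p = 0.301).

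In 19 genes of fatty acid oxidation 0 passed, and the median was -0.02. At an unadjusted p under 0.05, 4 were lower and 0 higher (7.52% and 10.3% of all genes). Ucp3, an uncoupling protein of muscle mitochondria, was 314, 255, 247 and 397 CPM in young and 96.6, 153, 171 and 199 CPM in old mice (log2 fold change -0.97, SE 0.28, adjusted p = 0.0679), and Echs1, an enzyme of the oxidation cycle, had a log2 fold change of -0.27 (SE 0.0806, adjusted p = 0.0687). Among 17 genes of glycolysis and glycogen 0 passed, with a median of -0.10 and 1 gene each way at an unadjusted p under 0.05. They were Pgk1 at -0.22 (adjusted p = 0.106) and Gys1, the muscle glycogen synthase, at 0.20 (adjusted p = 0.276). Lipogenesis and sterol genes (18 tested, median 0.08) held 0 at either threshold in edgeR, with Idi1 at 0.35 (adjusted p = 0.322).

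Protein synthesis, folding and breakdown genes stayed near 0. Cytosolic ribosomal proteins (78 tested) had a median of -0.04, with 6 lower at an unadjusted p under 0.05 (7.52% of all genes) and 0 after adjustment. Rpl39 (-0.22, adjusted p = 0.145) and the striated muscle form Rpl3l (-0.16, adjusted p = 0.156) had the smallest p. Heat-inducible chaperones (13 tested) had a median of -0.13, 1 higher and 3 lower unadjusted and 0 adjusted, led by Hspe1 (-0.24, adjusted p = 0.0705) and Hspa8 (-0.24, adjusted p = 0.141). Proteasome subunits (37 tested) had a median of 0.07, 1 higher and 0 lower unadjusted and 0 adjusted, led by Psmd5 (0.23, adjusted p = 0.184) and Psmb1 (0.15, adjusted p = 0.336).

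Most matrix genes had lower estimates in old muscle. Of 21 genes of collagens and matrix, 17 had a lower estimate, 6 with an unadjusted p under 0.05 (7.52% of all genes tested), 2 fell and 0 rose, with a median of -0.30. Eln, which encodes elastin, measured 32.4, 34.2, 33.7 and 37.4 CPM in young and 14.9, 20.2, 20.2 and 16.01 CPM in old mice (log2 fold change -0.95, SE 0.13, adjusted p = 9.93e-04). The lowest young library of Eln was 1.60 times the highest old library, and the call held without any single library, without old GFP mice 1 and 4 (adjusted p = 0.0245) and without young GFP mice 1 and 3 (adjusted p = 0.00931).
Sparc, a collagen-binding protein, was 253, 329, 257 and 216 CPM in young and 172, 178, 149 and 179 CPM in old mice (log2 fold change -0.64, SE 0.17, adjusted p = 0.0457), and its call was lost whichever single library was left out. Col1a1, the main chain of type I collagen, chosen after its values were seen, read 247, 244, 155 and 156 CPM in young and 92.1, 112, 66.1 and 93.1 CPM in old mice (log2 fold change -1.14, SE 0.40, adjusted p = 0.127). Its groups did not overlap, and the young mice spanned 1.59-fold.

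Resident cell types were read from marker lists, and in bulk RNA fewer cells of a type and less RNA per cell cannot be told apart. Satellite cell markers summed to 105 to 112 CPM in young and 91.7 to 110.2 CPM in old GFP mice. Of 10 markers only Chodl fell and 0 rose, with a median log2 fold change of -0.05. Chodl, a membrane lectin, was 8.58, 9.91, 9.71 and 11.1 CPM in young and 5.07, 6.67, 5.51 and 7.32 CPM in old mice (log2 fold change -0.68, SE 0.18, adjusted p = 0.0464), and its call held without old GFP mouse 4 and was lost without any other single library. Pax7, which defines the cell type and was chosen after its values were seen, measured 2.19, 2.14, 1.95 and 1.85 CPM in young and 3.07, 2.34, 2.30 and 2.42 CPM in old mice (log2 fold change 0.32, SE 0.27, adjusted p = 0.583).

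Connective tissue and vessel cells held 0 calls. Fibro-adipogenic progenitors, the mesenchymal cells between fibers, had a median of 0.04 over 10 markers, with 0 passing at either threshold in edgeR, and Lum (0.55, adjusted p = 0.417) and Ly6a (-0.25, adjusted p = 0.619) having the smallest p. Tenocytes, the tendon cells, had a median of -0.26 over 10 markers, 1 lower unadjusted, led by Cilp2 (-1.25, adjusted p = 0.113) and Scx (0.43, adjusted p = 0.300). Endothelial markers had a median of 0.10 over 10, 2 higher and 1 lower unadjusted (10.3% and 7.52% of all genes), with Emcn at 0.37 (adjusted p = 0.143) and Esam at -0.29 (adjusted p = 0.177). Smooth muscle and pericyte markers had a median of 0.07 over 10, 1 each way unadjusted, which were Cspg4 (0.51, adjusted p = 0.110) and Rgs5 (-0.19, adjusted p = 0.256).

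Immune cells differed by kind. Of 11 markers of B and plasma cells, Ighg2c and Ighm rose, 0 fell, and the median was 2.41, while 5 genes had a lower estimate, among them the B cell surface genes Cd79a, Cd79b and Ms4a1. The list summed to 38.9, 35.4, 121 and 25.4 CPM in young and 166, 379, 209.5 and 389 CPM in old mice. Young GFP mouse 3, which also carried the T cell and keratinocyte RNA, was the highest young library and still lay below every old library.
Mast cell markers summed to 9.16, 21.6, 12.7 and 10.3 CPM in young and 33.6, 34.9, 30.1 and 30.6 CPM in old mice, without overlap. Of 6 tested, 5 were higher at an unadjusted p under 0.05 (10.3% of all genes) and 0 after adjustment, with a median of 1.31. Cma1, a chymase of mast cell granules, was 1.40, 3.44, 2.14 and 1.59 CPM in young and 6.54, 5.95, 5.39 and 5.54 CPM in old mice (log2 fold change 1.45, SE 0.41, adjusted p = 0.0576), and Cpa3, a carboxypeptidase of the same granules, had a log2 fold change of 1.39 (adjusted p = 0.0976).

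Neutrophil markers were low in all libraries, summing to 2.14, 3.20, 2.03 and 1.44 CPM in young and 10.7, 10.4, 4.83 and 4.42 CPM in old mice. Of 6 tested, 5 were higher unadjusted (10.3% of all genes) and 0 adjusted, with a median of 2.40. S100a9, a calcium-binding protein of neutrophils, measured 0.280, 0.0962, 0.167 and 0.0481 CPM in young and 1.64, 1.42, 0.590 and 0.456 CPM in old mice (log2 fold change 2.78, SE 0.90, adjusted p = 0.0976), and Csf3r, the receptor for G-CSF, had a log2 fold change of 2.01 (adjusted p = 0.102). No old sum fell into the young GFP range, and old GFP mice 1 and 2 had the highest sums. In young sham mice 1 to 4 the sums were 1.15, 5.34, 5.64 and 4.52 CPM, which overlapped the old range.
Macrophage markers summed to 67.2, 105, 85.4 and 64.8 CPM in young and 135, 191, 103 and 94.8 CPM in old mice, with overlap. Of 11 tested, 3 were higher unadjusted (10.3% of all genes) and 0 adjusted, with a median of 0.78, led by Ms4a7 (1.30, adjusted p = 0.200) and Csf1r (0.89, adjusted p = 0.253). T and natural killer cell markers had a median of -2.24 over the 8 of 15 that passed the filter, 3 lower unadjusted and 0 adjusted, and the median turned to 1.55 without young GFP mice 1 and 3. Cd8a read 0.0466, 0.0721, 4.63 and 0.0722 CPM in young and 0.154, 0.0184, 0.169 and 0.0456 CPM in old mice (adjusted p = 0.195) and Trbc2, a T cell receptor constant chain, 0.0933, 0.0481, 5.26 and 0 CPM in young and 0.103, 0.0553, 0.225 and 0.0228 CPM in old mice (adjusted p = 0.219). Young GFP mouse 3 stood far above the other 7 libraries in both genes.

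Lists of immune function had positive medians and 0 calls. Complement genes (16 tested) had a median of 0.67, 6 higher and 0 lower unadjusted (10.3% and 7.52% of all genes) and 0 adjusted. C4b, a complement component, was 8.32, 16.6, 16.7 and 6.96 CPM in young and 33.2, 35.3, 31.1 and 20.9 CPM in old mice (log2 fold change 1.31, SE 0.42, adjusted p = 0.0914). Interferon response genes (17 tested, median 0.16), MHC class I genes (14 tested, median 0.18) and MHC class II genes (7 tested, median 0.20) held 0 at either threshold in edgeR. Their smallest p belonged to Usp18 (0.51, adjusted p = 0.514) and Ifit3 (0.46, adjusted p = 0.639), to H2-Q6 (0.71, adjusted p = 0.563) and B2m (0.31, adjusted p = 0.746), and to Ciita (-0.46, adjusted p = 0.786) and H2-DMa (0.25, adjusted p = 0.789).

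Nerve-sheath, fat and blood markers held 0 calls as well. Schwann cell markers (10 tested) had a median of 0.31 and 1 higher unadjusted, with Sox10 at 0.44 (adjusted p = 0.310). Adipocyte markers (10 tested) had a median of -0.11 and 1 lower unadjusted, led by Plin4 (-0.72, adjusted p = 0.244), and the fat hormone gene Lep, next in p, read 1.12, 24.5, 5.21 and 1.78 CPM in young and 12.7, 11.5, 30.8 and 7.44 CPM in old mice (adjusted p = 0.680). Erythroid markers (7 tested) had a median of 0.89 with 0 at either threshold, with Hbb-bs at 0.89 (adjusted p = 0.482), whose reads can be shared with near-identical globin copies. The 10 myofiber genes had a median of -0.07, 1 higher unadjusted and 0 adjusted, with Des, which encodes desmin, at 0.23 (adjusted p = 0.183) and Eno3, the muscle enolase, at -0.18 (adjusted p = 0.511).

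The lists of tissues foreign to muscle followed single libraries. Of 18 liver genes tested, 17 rose, with a median log2 fold change of 8.36. Without old GFP mice 1 and 4 the median was still 2.07, but 0 were called in edgeR and 0 were higher at an unadjusted p under 0.05. The genes with the highest old level were Alb, Ahsg, Cyp2e1 and Serpina1b. Ahsg, the fetuin-A gene, read 0, 0.0240, 0 and 0 CPM in young and 62.03, 0.332, 0 and 10.2 CPM in old mice (1 read over the young and 4087 over the old libraries, adjusted p = 0.0171), and Serpina1b, an antitrypsin gene with near-identical copies, 0.0933, 0.0481, 0.298 and 0 CPM in young and 43.2, 0.203, 0 and 6.34 CPM in old mice (log2 fold change 6.69, SE 1.75, adjusted p = 0.0415). Hpx, the hemopexin gene, rose by 7.90 on the log2 scale (adjusted p = 0.0186) and Serpina1d rose from 2 reads over the young to 1542 over the old libraries (adjusted p = 0.0186). In each of these, old GFP mice 1 and 4 were highest, and each of these calls was lost without old GFP mouse 1. Cyp2e1, a cytochrome also made outside the liver, was the exception, at 15.8, 63.8, 56.9 and 13.7 CPM in young and 49.5, 12.7, 9.72 and 38.7 CPM in old mice (log2 fold change -0.44, SE 0.98, adjusted p = 0.874). All 11 keratinocyte genes were lower unadjusted and 0 adjusted in edgeR (median -6.66, and 3.16 without young GFP mice 1 and 3), with the level of young GFP mice 1 and 3 far above that of the other 6 libraries. Lor, a protein of the cornified skin layer, read 12.4, 0.0962, 55.6 and 0.0481 CPM in young and 0.0514, 0.184, 0.0843 and 0.319 CPM in old mice (log2 fold change -6.73, SE 1.97, adjusted p = 0.0666), and Krtdap 8.30, 0.0962, 27.9 and 0.120 CPM in young and 0.154, 0.147, 0.140 and 0.228 CPM in old mice (log2 fold change -5.75, SE 1.68, adjusted p = 0.0663).

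**Figure D4:**
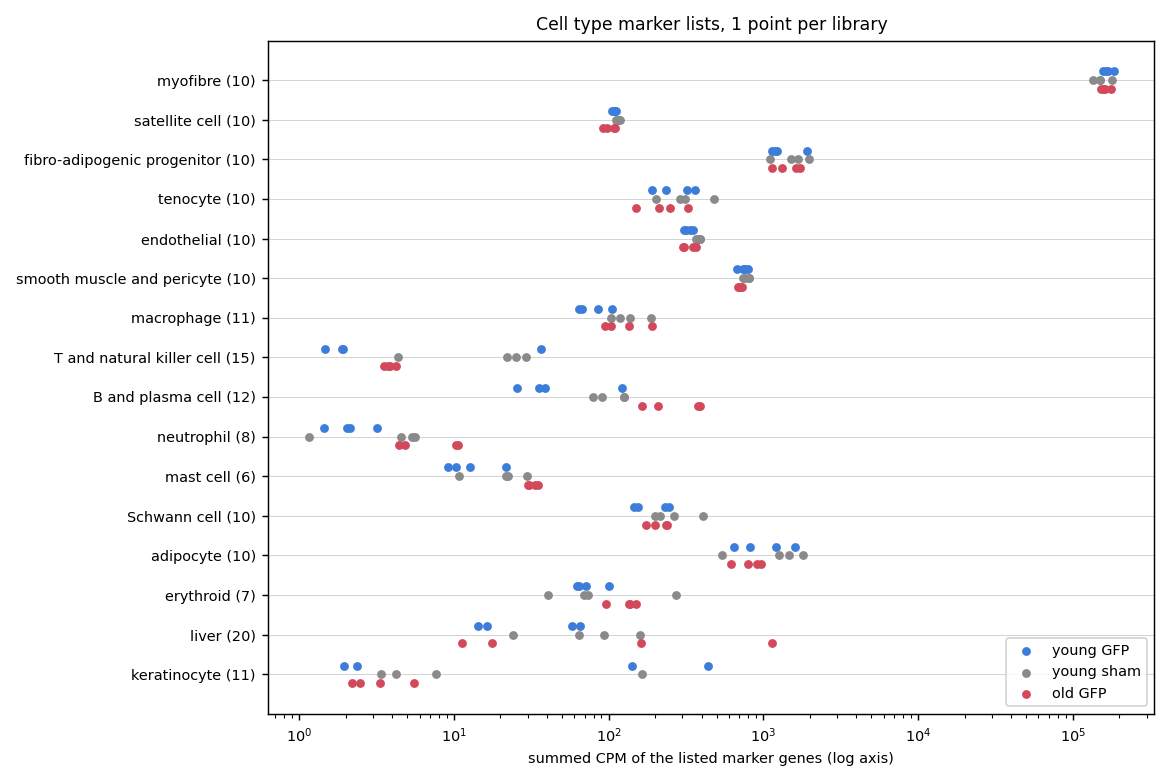
Summed CPM of 16 cell type marker lists (number of genes in brackets) on a log axis, 1 point per library of young GFP, young sham and old GFP. Old GFP points lie right of all young GFP points for B and plasma cells, mast cells and neutrophils, single old points stand out for liver and single young points for T cells and keratinocytes.

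Of the 42 lists, 28 held 0 genes called in edgeR, and 18 of these held 0 by the DESeq2 Wald test as well. By that test, Tnnc1 of the slow contractile proteins and C4b of complement were higher, as were 3 neutrophil genes (S100a9, Csf3r and S100a8) and 4 mast cell genes (Cma1, Cpa3, Mcpt4 and Tpsb2). Lower by that test were Pgk1 of glycolysis, Ucp3 and Echs1 of fatty acid oxidation, Hspe1 of the chaperones, Tsc22d3 and Mt2 of the glucocorticoid targets, Cilp2 of tenocytes and 6 keratinocyte genes.

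The 4 young sham libraries, labelled as young with sham treatment, gave a further young reference. They are compared with the same 4 old libraries, so the values stand side by side and are not independent of those above. Of the 424 genes that rose, the 4 old libraries also lay above the 4 young sham libraries for 251, and of the 189 that fell, they lay below them for 102. With young sham in place of young GFP, 423 genes (2.42%) were higher and 226 (1.29%) lower in old mice at an adjusted p under 0.05, and 197 of the 424 and 61 of the 189 genes described above were among them. Between young GFP and young sham themselves, 61 genes (0.349%) were higher and 30 (0.172%) lower in young GFP at an adjusted p under 0.05.

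Several genes that fell from young GFP to old GFP were as low in young sham. Ppargc1a measured 38.5, 41.7, 53.9 and 58.5 CPM in young sham mice 1 to 4, 3 of them within the old range, with a log2 fold change of 1.23 for young GFP over young sham (adjusted p = 0.00999) and of -0.09 for old GFP over young sham (adjusted p = 0.859). Cbarp was 1.41, 2.04, 1.75 and 3.01 CPM, and Smad3 139, 120.5, 106 and 116 CPM, in young sham mice 1 to 4. For these genes young GFP exceeded young sham by 1.54 and 0.64 on the log2 scale (adjusted p = 0.0218 and 0.0381). Both young sham ranges overlapped the old range and lay below the young GFP range.
Some genes that had not passed the test of old against young GFP showed the same arrangement. Nr4a3 was 24.6, 21.9, 20.5 and 43.6 CPM in young sham mice 1 to 4, Ucp3 88.4, 109, 115 and 149 CPM, Mt2 0.261, 0.153, 0.255 and 0.303 CPM and Tsc22d3 161, 143, 163 and 181 CPM. Young GFP over young sham gave log2 fold changes of 2.71, 1.42, 2.75 and 0.84 (adjusted p = 0.00857, 0.0241, 0.0445 and 0.0380). Foxo1, at 27.1, 34.02, 41.3 and 46.1 CPM, and Lrfn4, at 3.78, 4.37, 5.05 and 17.7 CPM, did not pass in that test (adjusted p = 0.0895 and 0.206), and 1 young sham library of Lrfn4 sat with young GFP. Unlike the other genes here, Lrfn4 had fallen from young GFP to old GFP. With young sham in place of young GFP its call was lost (-1.07 on the log2 scale, adjusted p = 0.125). Among genes that rose from young GFP to old GFP, Myod1 measured 37.9, 28.3, 29.3 and 29.7 CPM in young sham, within the old range, and Krt18 0.130, 8.60, 0.177 and 23.9 CPM, high in 2 libraries. Fos was 5.55, 15.1, 32.3 and 32.6 CPM and Fosb 0.609, 2.52, 10.3 and 21.1 CPM in young sham, and both ranges overlapped the old range.

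List medians of old GFP over young sham kept the sign for slow contractile proteins (0.67), nerve-muscle junction genes (0.47), matrix (-0.58), mast cells (0.76), neutrophils (1.70) and B and plasma cells (1.27), all on the log2 scale. They were near 0 or turned for the nuclear respiratory chain (-0.02), complement (0.02), macrophages (-0.03), metallothioneins and glucocorticoid targets (0.13), interferon response (-0.22), MHC class I (-0.31) and MHC class II (-0.77). Summed T and natural killer cell markers were 4.33, 21.9, 29.4 and 25.3 CPM in young sham mice, and liver markers 24.2, 93.7, 63.9 and 159.5 CPM. Most of these liver sums was Cyp2e1, at 23.7, 72.2, 57.7 and 129 CPM, while Alb read 0.0435, 9.81, 2.32 and 15.6 CPM in young sham.

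Other genes differed between old mice and both young groups. Eda2r was 12.96, 12.7, 14.95 and 12.8 CPM in young sham mice 1 to 4 (old GFP over young sham 1.78, adjusted p = 4.73e-05), Myh3 3.83, 3.68, 3.83 and 3.04 CPM (1.80, adjusted p = 0.00173) and Ankrd1 5.55, 4.999, 7.19 and 4.65 CPM (2.21, adjusted p = 0.00176). Eln was 33.7, 48.8, 39.3 and 49.2 CPM (-1.26, adjusted p = 2.67e-05) and Rian 44.6, 37.6, 26.4 and 21.7 CPM (-1.99, adjusted p = 1.38e-04). The groups did not overlap in any of these 5 genes.
Amy1, Ric3 and Dkk2, called genes with a narrow spread, chosen after their values were seen, are further examples. Amy1, a salivary-type amylase gene, measured 27.5, 34.7, 30.7 and 26.1 CPM in young and 74.1, 86.04, 85.2 and 75.5 CPM in old mice against 22.7, 33.6, 34.7 and 30.4 CPM in young sham (log2 fold change 1.43, SE 0.13, adjusted p = 1.15e-05). Ric3, a chaperone of acetylcholine receptors, was 3.12, 2.84, 2.73 and 2.50 CPM in young and 6.94, 7.18, 6.35 and 6.48 CPM in old mice against 2.78, 2.96, 3.56 and 3.35 CPM in young sham (log2 fold change 1.27, SE 0.12, adjusted p = 1.58e-05). Dkk2, a secreted modulator of Wnt signals, stood at 5.27, 5.39, 3.09 and 4.72 CPM in young and 11.5, 12.9, 11.6 and 11.95 CPM in old mice against 5.68, 5.72, 5.88 and 3.65 CPM in young sham (log2 fold change 1.38, SE 0.23, adjusted p = 0.00337). Their lowest old libraries were 2.14, 2.03 and 2.14 times the highest young GFP library, and 2.13, 1.79 and 1.96 times the highest young sham library.

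**Figure D5:**
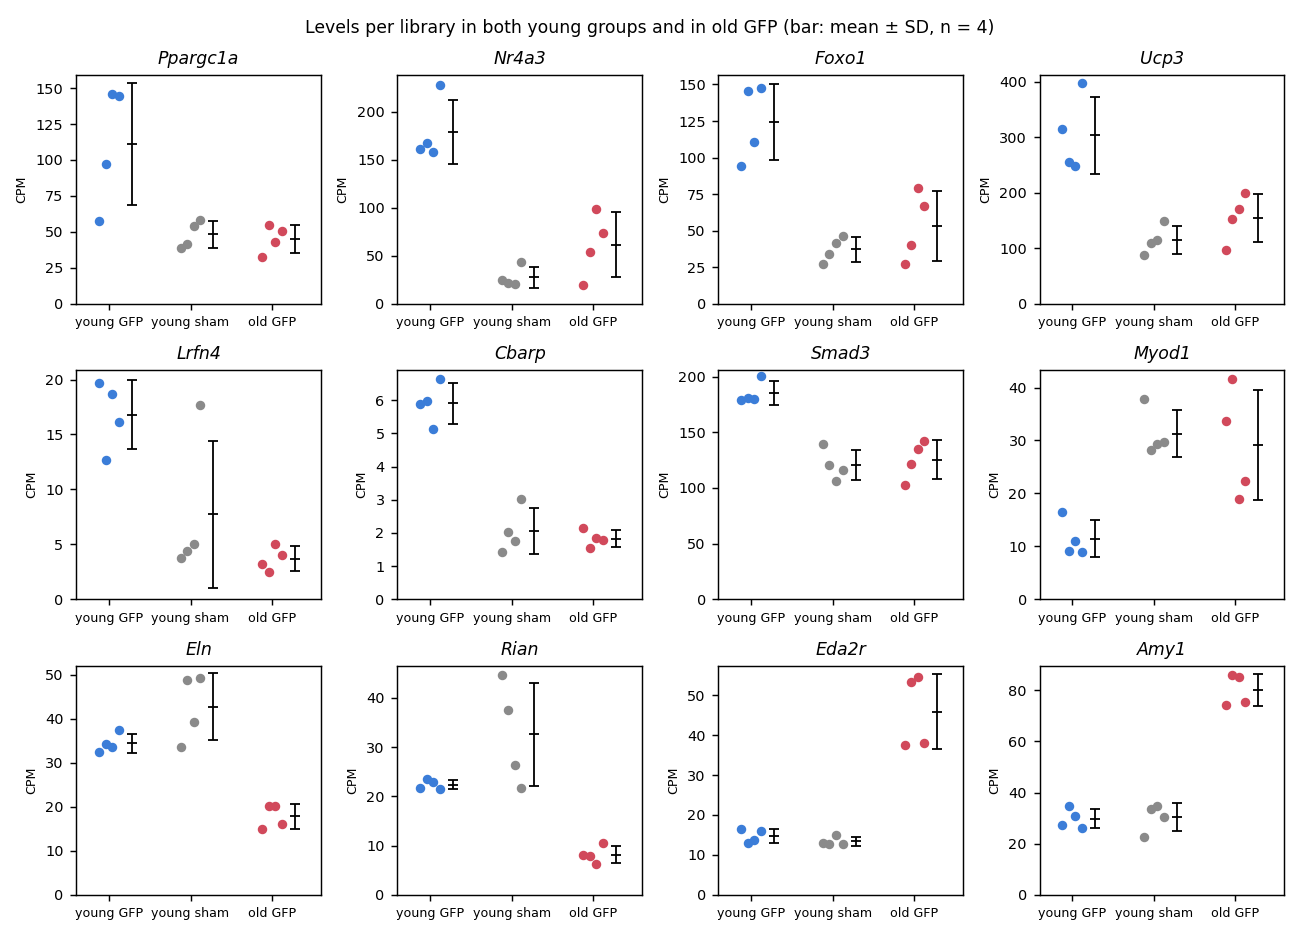
CPM per library of 12 genes in young GFP, young sham and old GFP, with mean ± SD (n = 4) beside the points. In the upper and middle rows (Ppargc1a to Myod1) most young sham points lie in or near the old GFP range, and in the lower row (Eln, Rian, Eda2r, Amy1) they lie away from it, on the side of young GFP.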

How the data were processed

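RNA was extracted from whole gastrocnemius, 1 library per mouse. Per the labels and the study's methods, the authors aligned reads with STAR to mm10 and deposited whole-number read counts per gene, and the unstranded count was used here. The 4 summary lines of each file were dropped. Of 55385 gene identifiers, 55144 matched an annotation of GRCm38, which gave symbols and coordinates.

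Old GFP was compared with young GFP by edgeR (4.0.16, R 4.3.3), with TMM scaling, edgeR's expression filter and the 2-sided quasi-likelihood test. The fit took the 20 libraries of 5 groups (young GFP, old GFP, old AAV-Kl, oldest-old GFP and oldest-old AAV-Kl), which share 1 estimate of the spread. Benjamini-Hochberg adjustment covered the 17465 genes kept. Shares of reads were compared by exact permutation over mice. Depth was 36415886 to 57976771 reads on genes per library (75.4% to 76.4% of reads), so sampling error is large for genes with few reads and small beside the spread between mice for the others. The fit with young sham, and the scaling of its CPM, took all 24 libraries.

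Named genes were the 12 largest increases and decreases as defined above, the called members of each list (the 4 with the smallest p if more), the 2 with the smallest p where none was called, 4 myosin genes and the 4 liver genes highest in old mice. A few genes that this rule names are not reported here. Genes said to be chosen after their values were seen fall outside this rule. The members and the 42 gene lists were chosen with earlier results of these data known, so no list is independent evidence. Alternatives were DESeq2 (1.42.0), other scalings and filters, the 8 libraries alone, a liver covariate, and left-out libraries. The edgeR step was tested on simulated counts first.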

Additional observations from a re-analysis of the deposited data

Results flagged for a closer look

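In a group of 4 mice, a value was singled out when its gap to the nearest other mouse took up more of the group's range than Dixon's 95% critical value allows. Of 268 groups of values examined 34 met it, where chance gives about 1 in 20. No explanation was tested for any of them.

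Old GFP mouse 1 was high in the summed liver markers (1130 CPM) and in Alb (659.9), Ahsg (62.03), Serpina1b (43.2), Hpx (25.04), Serpina1d (23.21), Fetub (5.841), Pax7 (3.066) and Gdf15 (1.113), all in CPM. Old GFP mouse 2 was high in Rgs5 (232.6 CPM) and Mymx (0.571 CPM) and low in Usp18 (1.474 CPM) and Abca4 (0.2579 CPM). Old GFP mouse 3 was high in Tsc22d3 (214.1 CPM). Old GFP mouse 4 was high in Casq1 (2103 CPM) and Krtdap (0.2281 CPM) and low in Mrpl27 (11.2 CPM) and Krt8 (0.2281 CPM).

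Young GFP mouse 2 was high in the summed markers of fibro-adipogenic progenitors (1907 CPM) and in Csf1r (14.04 CPM), Sox10 (3.246 CPM) and Ahsg (0.02405 CPM, where the other young mice had 0). Young GFP mouse 3 was high in the summed markers of B and plasma cells (121.4 CPM) and of T and natural killer cells (36.55 CPM), and in Trbc2 (5.264 CPM), Ciita (4.65 CPM), Cd8a (4.632 CPM), Clic3 (2.474 CPM) and Fbxo30 (14.57 CPM), and low in Rgs5 (221.7 CPM) and Adamts9 (11.79 CPM). Young GFP mouse 4 was high in Nr4a3 (228.3 CPM), Smad3 (201 CPM) and Hbb-bs (43.23 CPM).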

How the results depend on the processing

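Against 424 genes higher and 189 lower, the DESeq2 Wald test gave 658 and 424, the 8 libraries alone 670 and 461, and young sham added to young GFP 661 and 293. Fewer genes were called without old GFP mice 1 and 4 (142 and 59), with the liver level as a covariate (138 and 40), without young GFP mice 1 and 3 (50 and 45) and, chosen after seeing the data, without all 4 of these libraries (13 and 6). Without a filter on low counts 123 genes were lower. Leaving out 1 mouse gave 172 (without young GFP mouse 4) to 354 (without old GFP mouse 4) higher genes and 91 (without old GFP mouse 2) to 168 (without old GFP mouse 4) lower genes. Counts with DESeq2 size factors (389 and 220), a mean of at least 1 CPM (336 and 216) and young sham in place of young GFP (423 and 226, chosen after seeing the data) stayed within 1.5 times, as did the higher genes without a filter (338).

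Of 1090 values for 55 called genes under these alternatives, 759 kept direction and call, 324 kept direction without the call and 7 reversed. With young sham in place of young GFP, the reversed log2 fold changes were those of Krt18 (-0.52), Krt8 (-3.06), Myod1 (-0.095) and Smad3 (0.064), and with young sham added that of Krt8 (-2.07). Serpina1b reversed without old GFP mice 1 and 4 (-0.054) and with the liver covariate (-1.03). The cause was not tested. The differences in the Myh4 share and in the mitochondrial share kept their sign and missed the threshold under each alternative run. Amy1, Nkx2-2os, Ppargc1a, Ric3 and Tmem132b were the named genes still called without all 4 doubtful libraries.

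With the replicate number of the labels as a block, 363 genes were higher and 150 lower, and 11 of the 55 genes lost the call. Old and young mice of the same number shared only that number: the correlations of their deviations were -0.0484, 0.0291, -0.00587 and 0.0796 for numbers 1 to 4.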
